A study of Mus musculus with 4 samples.

Results

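The miR-181 family was followed in plasma of mice with acute myocardial infarction (AMI) and of Sham-operated mice, in 4 small RNA libraries, 2 of AMI and 2 of Sham. Its members were picked by name: 6 mature miRNAs were listed, of which 5 have an entry among the 921 miRNA entries of the deposited table, mmu-miR-181a-5p, mmu-miR-181b-5p, mmu-miR-181c-5p, mmu-miR-181d-5p and mmu-miR-181a-1-3p. The sixth, mmu-miR-181a-2-3p, was not analysed here. A further 4 arms of the same hairpins have entries and are described beside them, mmu-miR-181b-1-3p, mmu-miR-181b-2-3p, mmu-miR-181c-3p and mmu-miR-181d-3p. The family as a whole was chosen on the AMI and Sham UMI counts of these same libraries, so every AMI against Sham value below is a description and carries no test.

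Both groups were C57BL/6 mice, male and 8 weeks old by the methods of the study unless specified there. In AMI mice a lasting tie on the LAD, the artery that feeds the front wall of the left ventricle, cut off its blood flow. In Sham mice the chest was opened and the artery was not tied. RNA came from plasma, the cell-free part of blood, and the labels leave unstated both the time of blood collection and whether each library was a different mouse. The values are counts of unique molecular identifiers (UMIs), random tags that mark each cDNA molecule before amplification so that PCR copies are counted once.

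MicroRNAs are cut from hairpin precursors, each of which holds a mature strand in its 5p and its 3p arm. As a rule 1 arm, the guide, is loaded into Argonaute and kept, while the other, the passenger, is mostly degraded. In the miR-181 family the 5p arms are the guides. The family is known for tuning T cell receptor sensitivity in thymocytes (miR-181a), for restraining NF-kB signalling in vascular endothelium (miR-181b) and, in rat heart, for reaching mitochondria (miR-181c). Targets are recognised chiefly by the seed, bases 2 to 8 of the mature strand.

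The mature strands are shown because the guides share a seed that the passengers lack, and guides and passengers are compared below. Sequences are those of RefSeq (GRCm38.p6), 5′ to 3′, with the seed in capitals.
mmu-miR-181a-5p: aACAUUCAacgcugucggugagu
mmu-miR-181b-5p: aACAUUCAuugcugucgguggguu
mmu-miR-181c-5p: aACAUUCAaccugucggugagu
mmu-miR-181d-5p: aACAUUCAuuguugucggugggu
mmu-miR-181a-1-3p: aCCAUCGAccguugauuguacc
mmu-miR-181a-2-3p: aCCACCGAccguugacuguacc
mmu-miR-181c-3p: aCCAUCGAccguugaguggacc
mmu-miR-181b-1-3p: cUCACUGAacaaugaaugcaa
mmu-miR-181d-3p: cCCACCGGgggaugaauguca

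All 4 of the 5p arms share the seed ACAUUCA, which no other of the 1679 mature mouse miRNAs in the RefSeq table carries. The 3p arms fall into several seeds, of which mmu-miR-181a-1-3p and mmu-miR-181c-3p share CCAUCGA. Within the 5p arms, mmu-miR-181b-5p and mmu-miR-181d-5p differ over their first 23 bases at a single position, C12U, counted from 1 at the 5′ end with the base of miR-181b first. mmu-miR-181a-5p differs from mmu-miR-181b-5p there by A9U, C10U and A21G, and from mmu-miR-181c-5p by an edit distance of 1. Strands as close as miR-181b and miR-181d, or miR-181a and miR-181c, can exchange reads through a sequencing error, and how the authors resolved such reads is not given in the sources used here, so the split between paralogs is less certain than their sum.

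The hairpins form 3 clusters of 2, positions in GRCm38 from GENCODE. Mir181a-1 (137966455 to 137966541) and Mir181b-1 (137966639 to 137966718) lie 97 bases apart on the plus strand of chromosome 1, in an exon of the non-coding A430106G13Rik and in an intron of the non-coding Gm4258. Mir181a-2 (38852735 to 38852810) and Mir181b-2 (38853830 to 38853918) lie 1019 bases apart on the plus strand of chromosome 2, antisense to an intron of Nr6a1, a nuclear receptor gene. Mir181c (84178873 to 84178961) and Mir181d (84178716 to 84178787) lie 85 bases apart on the minus strand of chromosome 8, in an intron of Nanos3, a germ cell gene. The first and second clusters give the same 5p strands. This is seen in the hairpins of miR-181a, printed with both arms in capitals, which hold identical 5p arms and 3p arms that differ by U5C and U16C (base of miR-181a-1-3p first).
Mir181a-1: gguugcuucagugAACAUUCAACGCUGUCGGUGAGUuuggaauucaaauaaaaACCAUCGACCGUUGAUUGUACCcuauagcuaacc
Mir181a-2: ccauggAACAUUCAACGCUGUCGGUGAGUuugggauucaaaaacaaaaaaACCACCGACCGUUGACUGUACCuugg
UMIs of mmu-miR-181a-5p and mmu-miR-181b-5p therefore cannot be divided between chromosomes 1 and 2, whereas every 3p arm belongs to 1 hairpin.

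The libraries held 9016139 and 11461361 UMIs in AMI and 7460687 and 4842247 in Sham plasma, at 1.16 to 1.28 reads per UMI. The UMI counts showed a pattern in pairs of libraries. Between AMI 1 and Sham 2, and between AMI 2 and Sham 1, the larger count of an entry was never 1 to 9, so a 0 in both libraries of such a pair may not be a measured absence. Counts were fitted across 772 miRNAs with the quasi-likelihood test of edgeR. At an adjusted p under 0.05 (edgeR, Benjamini-Hochberg), 98 miRNAs (12.7%) were lower and 114 (14.8%) higher in AMI plasma, which became 32 and 47 without AMI 1 and 29 and 66 without AMI 2. Scaling by library size alone gave 147 lower and 86 higher. Levels below are CPM, UMI counts scaled by the library total and its TMM factor, which adjusts the total for composition. With 2 libraries per group a standard deviation (SD) rests on 2 values.

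The guide strands of the family were lower in AMI than in Sham plasma, by about the same factor for all 4 paralogs. Summed, the 5p arms counted 7061 UMIs in AMI 1 and 6728 in AMI 2, against 42817 in Sham 1 and 49776 in Sham 2. They made up 0.0789% and 0.0590% of all miRNA UMIs in AMI and 0.575% and 1.03% in Sham plasma. The sum averaged 752 ± 77.0 CPM in AMI plasma, against 7144 ± 2068 CPM in Sham plasma (SD, n = 2 each), with a log2 ratio of −3.25, or 9.50-fold lower in AMI. Without Sham 2, the library with the higher level, the log2 ratio was −2.92. These levels are relative to the other miRNAs of each library. In plasma, release from fewer cells, release of fewer copies per cell and other causes cannot be told apart, and none was tested.

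mmu-miR-181a-5p, the strand known from thymocytes, was the most abundant member. AMI 1 counted 4321 and AMI 2 counted 3941 of its UMIs, against 24711 for Sham 1 and 29712 for Sham 2. Each Sham library thus held several times the UMIs of each AMI library, although both AMI libraries were deeper. The level averaged 451 ± 60.0 CPM in AMI plasma, against 4208 ± 1314 CPM in Sham plasma (SD, n = 2 each), with a log2 fold change of −3.22 (standard error 0.41). By UMI count it ranked 111 and 113 among the miRNA entries in AMI and 46 and 34 in Sham plasma.

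mmu-miR-181b-5p, the strand linked to endothelial NF-kB signalling, came second in every library. Its UMI counts were 1811 in AMI 1 and 1903 in AMI 2, against 13143 in Sham 1 and 14611 in Sham 2. The AMI libraries lay close together, at 202 ± 6.73 CPM (SD, n = 2), and the Sham libraries at 2135 ± 553 CPM (SD, n = 2). Its log2 fold change of −3.40 (standard error 0.39) was the lowest of the family.

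The chromosome 8 pair was less abundant and differed to a like degree. For mmu-miR-181d-5p, AMI 1 counted 635 and AMI 2 counted 653 UMIs, against 3667 for Sham 1 and 3587 for Sham 2. Its level averaged 70.1 ± 3.41 CPM in AMI plasma, against 553 ± 94.5 CPM in Sham plasma (SD, n = 2 each), with a log2 fold change of −2.98 (standard error 0.38). mmu-miR-181c-5p, the strand found in rat heart mitochondria, was the least abundant guide. AMI 1 counted 294 and AMI 2 counted 231 UMIs, against 1296 for Sham 1 and 1866 for Sham 2, or 28.8 ± 6.81 CPM in AMI and 247 ± 107 CPM in Sham plasma (SD, n = 2 each). The log2 fold change was −3.10 (standard error 0.45), and −2.61 without Sham 2. The Sham libraries were relatively farther apart for mmu-miR-181c-5p than for the other guides, at 172 and 323 CPM.

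**Figure D1:**
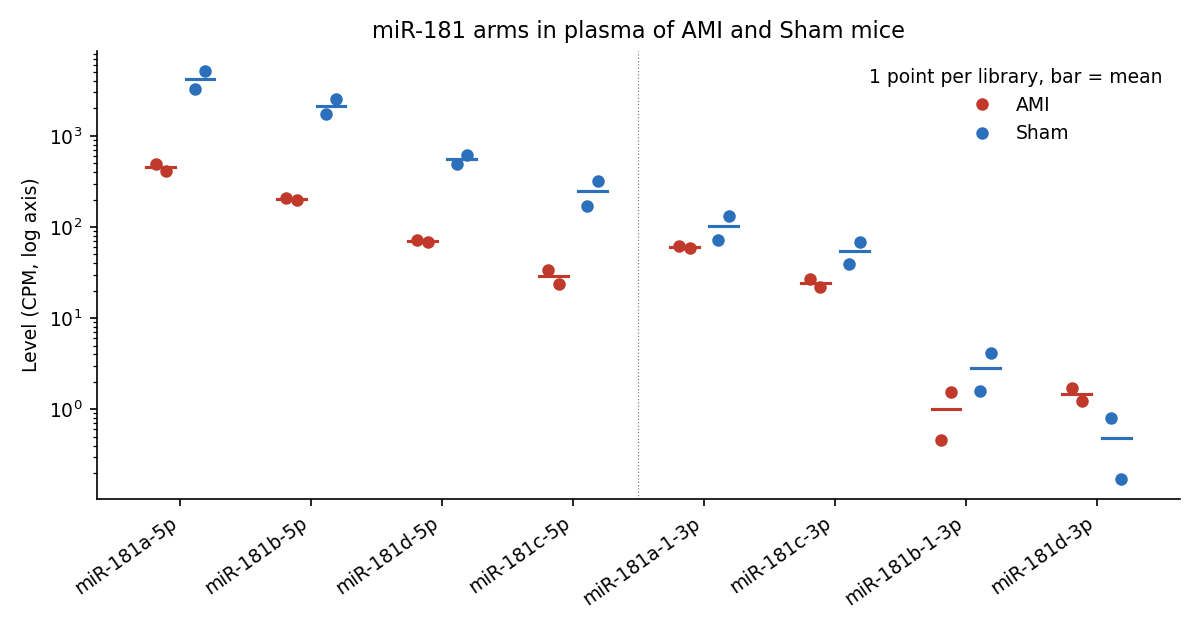
Levels of the miR-181 arms (CPM, log axis) in AMI and Sham plasma, with 1 point per library and a bar at the mean of 2 libraries; 5p arms stand left of the dotted line and 3p arms right of it, and mmu-miR-181b-2-3p, at 0 UMIs in 2 libraries, is left out. The 4 guides have means of 28.8 to 451 CPM in AMI, against 247 to 4208 CPM in Sham plasma, while mmu-miR-181a-1-3p is at 60.1 CPM in AMI and 102 CPM in Sham plasma.

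Beside the guides, the passenger strand mmu-miR-181a-1-3p differed little. AMI 1 counted 540 and AMI 2 counted 564 of its UMIs, against 543 for Sham 1 and 763 for Sham 2, so that AMI 1, AMI 2 and Sham 1 held nearly the same number. The level averaged 60.1 ± 2.26 CPM in AMI plasma, against 102 ± 42.3 CPM in Sham plasma (SD, n = 2 each). Both AMI libraries lay under both Sham libraries, by a narrow margin against Sham 1 at 72.1 CPM. The log2 fold change was −0.76 (standard error 0.40), and it was −0.29 without Sham 2. It did not pass the threshold with all libraries and did without Sham 1, at −1.14.

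Of the 5 members, 4 (the guides) were lower at an adjusted p under 0.05 from edgeR, beside 12.7% of all miRNAs tested, and the 5 had both AMI libraries under both Sham libraries, beside 30.4% of all. These counts are given for orientation and nothing is read from them, since the family was chosen on this contrast. All 5 members passed the filter on low counts in either group, with at least 231 UMIs in every library. The guides held the positions 7 to 10 when the 772 log2 fold changes were ordered from the lowest, as mmu-miR-181b-5p, mmu-miR-181a-5p, mmu-miR-181c-5p and mmu-miR-181d-5p, and mmu-miR-181a-1-3p held position 182. The median over all 772 was 0.04. Each guide kept its negative sign and stayed past the threshold in all 15 alternatives, in which the log2 fold changes ranged from −3.70 to −2.61.

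**Figure D2:**
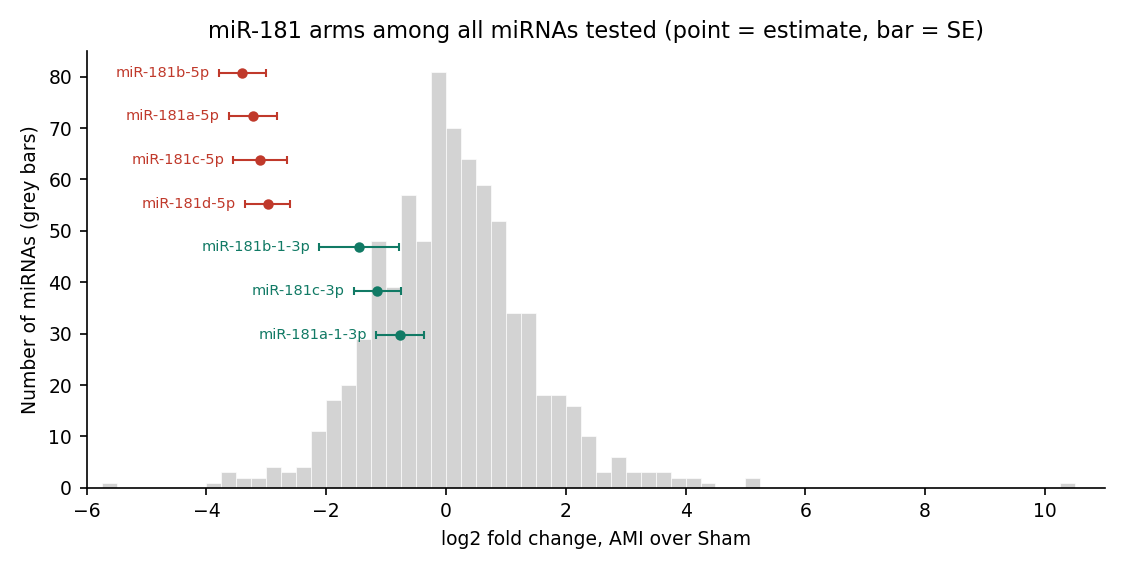
log2 fold changes (AMI over Sham) of the 7 miR-181 arms that passed the filter, with bars of 1 standard error, over a histogram of all 772 miRNAs tested (number of miRNAs per bin of the log2 fold change). The guides sit between −3.40 and −2.98 in the lower tail, and the 3p arms between −1.45 and −0.76.

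Although their levels differed severalfold between the groups, the 4 guides kept nearly the same proportions in all libraries. mmu-miR-181a-5p made up 61.2% and 58.6% of the 5p UMIs of the family in the AMI libraries, against 57.7% and 59.7% for Sham 1 and Sham 2. The exact 95% binomial interval was 60.0% to 62.3% in AMI 1, and all such intervals cover counting error only. mmu-miR-181b-5p made up 25.6% of them in AMI 1 and 28.3% in AMI 2, against 30.7% in Sham 1 and 29.4% in Sham 2. mmu-miR-181d-5p was at 8.99% and 9.71% in AMI and 8.56% and 7.21% in Sham plasma, and mmu-miR-181c-5p at 4.16% and 3.43% in AMI and 3.03% and 3.75% in Sham plasma. The order a, b, d, c was the same in the 4 libraries.

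**Figure D3:**
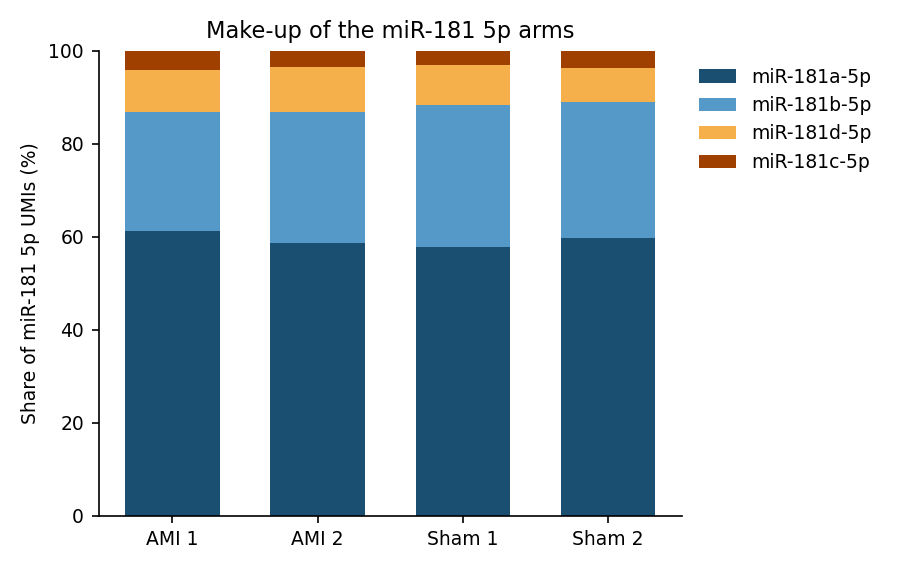
Share (%) of each paralog among the summed miR-181 5p UMIs in each library, AMI 1, AMI 2, Sham 1 and Sham 2. The bars look alike, with mmu-miR-181a-5p at 57.7% to 61.2% of the UMIs.

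Ratios within a library need no scaling between libraries. The ratio of mmu-miR-181a-5p to mmu-miR-181b-5p was 2.39 in AMI 1 and 2.07 in AMI 2, against 1.88 in Sham 1 and 2.03 in Sham 2. The 4 values lie close together, and the AMI libraries are above the Sham libraries by a narrow margin. Between the members of the chromosome 8 cluster, the ratio of mmu-miR-181c-5p to mmu-miR-181d-5p was 0.463 and 0.354 in AMI and 0.353 and 0.520 in Sham plasma, and here the groups overlapped. The ratio of mmu-miR-181b-5p to mmu-miR-181d-5p, which differ at C12U, was 2.85 and 2.91 in AMI and 3.58 and 4.07 in Sham plasma, with AMI below Sham in each library. Its AMI minus Sham difference of −0.41 on the log2 scale was the widest between any pair of guides. The SD of the log2 ratio over the 4 libraries was 0.14 to 0.30 for the 6 pairs of guides. It was 1.33 to 1.55 for a guide against mmu-miR-181a-1-3p.

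The ratio of 5p to 3p strands differed between AMI and Sham plasma more than the ratios between paralogs. For each UMI of mmu-miR-181a-1-3p the AMI libraries held 8.0 and 6.99 UMIs of mmu-miR-181a-5p, against 45.5 and 38.9 in the Sham libraries. The passenger was thus 11.1% (exact 95% interval 10.2 to 12.0) and 12.5% (11.6 to 13.5) of the UMIs of both arms in AMI, and 2.15% (1.97 to 2.34) and 2.50% (2.33 to 2.69) in Sham plasma. These shares include the guide UMIs of Mir181a-2, so they understate the passenger share of Mir181a-1 itself. A different arm balance and a different mix of Mir181a-1 and Mir181a-2 cannot be told apart from these UMIs. On the log2 scale the 5p to 3p ratio averaged 2.90 ± 0.14 in AMI plasma, against 5.40 ± 0.16 in Sham plasma (SD, n = 2 each), a difference of −2.49.

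Mir181c, whose arms both come from a single hairpin, had the same direction. For mmu-miR-181c-3p, AMI 1 counted 235 and AMI 2 counted 213 UMIs, against 298 for Sham 1 and 399 for Sham 2. Its arms were close to even in AMI plasma, with 1.25 and 1.08 UMIs of mmu-miR-181c-5p for each of mmu-miR-181c-3p, against 4.35 and 4.68 in Sham plasma. The 3p share was 44.4% (40.1 to 48.8) and 48.0% (43.2 to 52.7) in AMI, and 18.7% (16.8 to 20.7) and 17.6% (16.1 to 19.2) in Sham plasma. The AMI minus Sham difference of the log2 ratio was −1.95. The level of mmu-miR-181c-3p itself averaged 24.5 ± 3.36 CPM in AMI plasma, against 54.3 ± 20.8 CPM in Sham plasma (SD, n = 2 each), with a log2 fold change of −1.15 (standard error 0.39). It passed the threshold with all libraries but not without AMI 1 (−1.27), AMI 2 (−1.02) or Sham 2 (−0.72).

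The other 3p arms were rare. mmu-miR-181b-1-3p counted 4 UMIs in AMI 1 and 15 in AMI 2, against 12 in Sham 1 and 24 in Sham 2, with a log2 fold change of −1.45 (standard error 0.66) that did not pass the threshold. This value rests on single libraries, at −0.83 without AMI 1, −2.59 without AMI 2, −0.67 without Sham 2 and −2.01 without Sham 1, where it passed. mmu-miR-181d-3p counted 15 UMIs in AMI 1 and 12 in AMI 2, against 6 in Sham 1 and 1 in Sham 2, and did not pass the filter on low counts. It was the only arm of the family with both AMI libraries above both Sham libraries, at few UMIs in each. For each of its UMIs there were 42.3 and 54.4 of mmu-miR-181d-5p in AMI and 611 and 3587 in Sham plasma. In each pair of libraries with missing low counts, only its AMI count was above the missing range. Its direction and this ratio may follow from that, so nothing is read from them. mmu-miR-181b-2-3p counted 0 UMIs in AMI 1 and 10 in AMI 2, against 1 in Sham 1 and 0 in Sham 2. The libraries at 0 are AMI 1 and Sham 2, a pair in which low counts are missing, so no comparison is made.

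To place these ratios, the arms of all RefSeq hairpins with entries for both were paired, which gave 230 pairs, of which 144 had at least 10 UMIs per arm in every library. Over the 144 pairs the AMI minus Sham difference of the log2 5p to 3p ratio had a median of −0.12, with 5% of the pairs under −2.19 and 5% over 1.77. It was within 1 in either direction in 86 pairs. From the lowest, mmu-miR-181a-5p with mmu-miR-181a-1-3p held position 3 and mmu-miR-181c-5p with mmu-miR-181c-3p position 13. Both positions draw on the AMI and Sham counts on which the family was chosen, so nothing is read from them. In both of these pairs the AMI libraries were under the Sham libraries, as in 41.0% of the 144 pairs. Unequal shifts of paired arms were thus common in these plasma libraries.

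**Figure D4:**
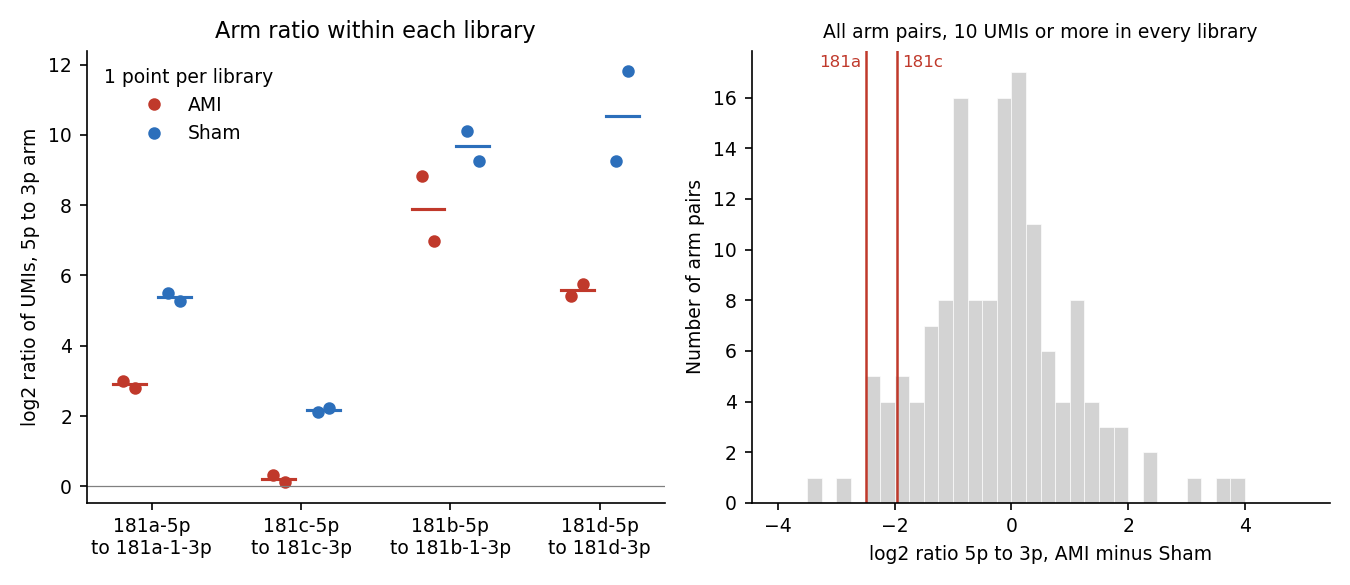
Left, log2 ratio of 5p to 3p UMIs of 4 miR-181 arm pairs in AMI and Sham plasma, with 1 point per library and a bar at the mean. The pairs with mmu-miR-181b-1-3p and mmu-miR-181d-3p rest on 1 to 24 UMIs of the 3p arm per library. Only the AMI counts of mmu-miR-181d-3p were above the range of missing low counts, so nothing is read from its pair. The 5p UMIs of miR-181a and miR-181b cannot be divided between their hairpins. Right, AMI minus Sham difference of that ratio over 144 arm pairs (number of pairs per bin), with red lines at −2.49 for miR-181a and −1.95 for miR-181c. Both lie in the lower tail, for a family chosen on these same counts.

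The miRNAs nearest to the family in pattern were found by the SD, over the 4 libraries, of the log2 ratio of UMIs to each member. Candidates were the 356 miRNAs outside the family with at least 50 UMIs in every library. This SD takes in the AMI against Sham difference, so the nearest miRNAs are largely those with a like difference. For mmu-miR-181a-5p these were miR-196b-5p (SD 0.34), miR-362-3p (0.46), miR-199b-5p (0.55), miR-1306-3p (0.65) and miR-652-3p (0.66). miR-196b-5p, a Hox cluster miRNA, also led for mmu-miR-181b-5p (0.37) and mmu-miR-181d-5p (0.20), and stood second for mmu-miR-181c-5p (0.40). It lay nearer to mmu-miR-181d-5p than mmu-miR-181b-5p (0.25) or mmu-miR-181c-5p (0.28) did, but not nearer than mmu-miR-181a-5p (0.19). AMI 1 counted 881 and AMI 2 counted 1208 of its UMIs, against 5057 for Sham 1 and 5309 for Sham 2. miR-362-3p stood first for mmu-miR-181c-5p (0.39) and second for mmu-miR-181b-5p (0.51). The last of the 3 named for each was miR-199b-5p, at 0.52 for mmu-miR-181c-5p and 0.56 for mmu-miR-181b-5p. For mmu-miR-181d-5p the next were miR-1306-3p and miR-652-3p (0.51 each). With a minimum of 10 UMIs, miR-211-5p, at 43 to 274 UMIs per library, stood first for mmu-miR-181a-5p (0.30) and mmu-miR-181c-5p (0.24) and second for mmu-miR-181b-5p (0.43) and mmu-miR-181d-5p (0.28).

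The passenger strands had other neighbours, which follows from their smaller AMI against Sham differences and is no separate result. mmu-miR-181a-1-3p was nearest to miR-214-5p (SD 0.11), miR-300-3p (0.12) and miR-485-5p (0.13), and mmu-miR-181c-3p to miR-501-3p (0.085), miR-127-5p (0.093) and miR-540-3p (0.10).

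Lists of miRNAs from cells in which the family is known, and from other sources of plasma RNA, are set beside it. Of 7 lymphoid miRNAs, 2 were lower (12.7% of all tested were), 1 was higher (14.8% of all) and 4 did not pass, with a median log2 fold change of −0.60. Those lower were miR-155-5p, an activation-induced miRNA of lymphocytes (−1.33), and miR-342-5p (−3.68, on 4 to 62 UMIs per library), and miR-29b-3p was higher (1.46). miR-150-5p, abundant in mature lymphocytes, was at −0.60 (standard error 0.35). The summed level of the list was 23935 and 26169 CPM in AMI and 48091 and 28562 CPM in Sham plasma. Most of this sum was miR-142a-3p, at 16757 and 19083 CPM in AMI and 39446 and 20889 CPM in Sham plasma. Whether the listed miRNAs are limited to lymphocytes was not tested, so the sum is not a lymphocyte level. Of 6 endothelial miRNAs none passed in either direction, beside 27.5% of all tested, at a median of −0.44. Their sums were 25021 and 25306 CPM in AMI and 34981.5 and 30155.5 CPM in Sham plasma. Of 5 miRNAs tied to NF-kB signalling, miR-146b-5p (−1.42) and miR-155-5p, also in the lymphoid list, were lower, beside 12.7% of all tested. From the same list miR-9-5p was higher (1.52), beside 14.8% of all, and the median was −1.10. The other 2, miR-146a-5p (−1.10) and miR-21a-5p (−1.07), did not pass.

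Of the 5 erythrocyte and the 5 platelet and myeloid miRNAs none passed in either direction, beside 27.5% of all tested, at medians of 0.15 and 0.51. The summed erythrocyte level was 279270 and 337831 CPM in AMI and 298329 and 158260 CPM in Sham plasma, and that of the platelet and myeloid list 58511 and 63748 CPM in AMI and 33249 and 38604 CPM in Sham plasma. Most of the erythrocyte sum was miR-16-5p, which is not limited to red cells, at 234101 and 300154 CPM in AMI and 206222 and 112882 CPM in Sham plasma. miR-451a, the defining red cell miRNA, was at −1.26 on the log2 scale (standard error 0.44), with both AMI libraries under both Sham libraries. The log2 ratio of miR-451a to miR-23a-3p, a common sign of red cell lysis, was 1.02 and 0.52 in AMI and 3.02 and 1.56 in Sham plasma. It was thus higher in both Sham libraries, and highest in Sham 1. The summed guides were at 5682 CPM in Sham 1 and 8607 CPM in Sham 2. No cut-off for lysis was applied, and a link between this ratio and the guides was not tested. Of 5 neuronal miRNAs 3 were higher, beside 14.8% of all tested, and 2 did not pass, at a median of 1.34. Those higher were miR-9-5p (also in the NF-kB list), miR-128-3p (1.34) and miR-137-3p (3.59). miR-218-5p was at −1.13, with both AMI libraries under both Sham libraries. For miR-124-3p, on 11 to 34 UMIs per library, the groups overlapped. The 4 myo-miRs were all higher, beside the same 14.8%, at a median of 4.31 and sums of 86321 and 97271 CPM in AMI and 11365 and 5816 CPM in Sham plasma. No listed miRNA was at 0 in all libraries. The part of any of these sources in the levels of the miR-181 family was not tested.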

How the data were processed

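Small RNA from plasma was sequenced in 4 libraries, AMI 1, AMI 2, Sham 1 and Sham 2. The authors deposited whole-number counts of UMIs and of reads, without normalization, for 921 miRNA and 94 piRNA entries. The submitters' notes name bcl2fastq 2.18.0.12 and the build mm10, and neither aligner, annotation nor filters were given in the sources used here. 1 separator line without values was left out. The members, the lists and the tests were chosen with earlier results of these data known.

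UMI counts were tested across all miRNAs with edgeR 4.0.16 in R 4.3.3 (filterByExpr, TMM, robust quasi-likelihood fit, two-sided, Benjamini-Hochberg over 772 miRNAs). The fit was first run on simulated counts with a common spread for all miRNAs and without the missing low counts. That run cannot show how well the calls hold in these libraries. p-values measure the spread between libraries, which may be technical. Total counts of 4842247 to 11461361 UMIs limit the precision of arms with few UMIs. Shares carry exact Clopper-Pearson 95% intervals (scipy 1.17.1). Ratios between members use raw UMIs. Named miRNAs are the members, the other miR-181 arms, the nearest 5 miRNAs of mmu-miR-181a-5p and nearest 3 of the others, and list members set beside them. Alternatives were DESeq2 1.42.0, other scalings and filters, read counts, a joint fit with piRNAs, a replicate block and each library left out.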

Additional observations from a re-analysis of the deposited data

How the results depend on the processing

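In 15 alternatives the guides mmu-miR-181a-5p, mmu-miR-181b-5p, mmu-miR-181c-5p and mmu-miR-181d-5p kept their direction and passed the threshold in all 15, mmu-miR-181a-1-3p kept its direction and passed in 1 (without Sham 1), and mmu-miR-181c-3p kept its direction and passed in 9. mmu-miR-181b-1-3p, which has no value with a minimum of 10 UMIs, kept its direction in 14 and passed in 3. With each library left out in turn the count of miRNAs called, 212, ranged from 79 to 305, and the summed 5p arms, at a log2 ratio of −3.25, from −3.52 to −2.92. The cause was not tested. Scaling by library size alone moved the median log2 fold change of all miRNAs from 0.04 to −0.23 and gave 86 higher and 147 lower, and scaling by the 6 miRNAs that the study used as plasma references moved it to 0.21, while the summed 5p arms were at −3.54 and −3.08. With the replicate number as a replicate block 172 were called. The AMI 1 minus AMI 2 difference on the log2 scale was correlated with the Sham 1 minus Sham 2 difference. It gave r = 0.01 over the 750 miRNAs not at 0 in both libraries of a pair, and −0.37 over all 772. Both values are across miRNAs and not across independent samples, so they cannot settle whether the numbers pair the libraries. Crossing the numbers, chosen after the data were seen, gave 249, and leaving out the entries at 0 in a pair, also chosen then, gave 256. The difference of the log2 ratio of mmu-miR-181c-5p to mmu-miR-181d-5p, −0.083, changed sign without AMI 2 (0.11) and without Sham 2 (0.20). With a minimum of 10 UMIs, the named nearest miRNAs kept were 3 of 5 for mmu-miR-181a-5p, 2 of 3 for mmu-miR-181b-5p, mmu-miR-181c-5p and mmu-miR-181a-1-3p, 1 of 3 for mmu-miR-181d-5p and 3 of 3 for mmu-miR-181c-3p. Counts of 1 to 24 UMIs limit what can be said of the rare 3p arms.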

Other observations

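Amplification of the family resembled that of other miRNAs. The 6 arms with at least 50 UMIs in every library had 1.10 to 1.12 reads per UMI in AMI 1 and 1.08 to 1.11 in AMI 2, against 1.11 to 1.14 in Sham 1 and 1.28 to 1.33 in Sham 2. The medians over the 362 miRNAs with as many UMIs were 1.09 in both AMI libraries, 1.12 in Sham 1 and 1.28 in Sham 2.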
